A study of Mus musculus with 20 samples.

Results

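The genes described here are 39 interferon response genes, the transcripts that cells make when interferon binds its receptor or when viral nucleic acid is sensed. They were chosen by name from a list of names and matched to the gene names given for the array's probes. The choice of members and of the other gene lists below was made with earlier results of these data known. All 39 were on the array and all 39 were kept by the filter on dim probes, out of 21423 genes tested, so no member was left out for low signal. The study grew organoids, small hollow epithelial structures in a gel, from the proximal colon of male mice about 40 days old that carried 1 Cre-activable BrafV600E allele (Braf+/LSL). Organoids given an empty lentiviral backbone (EV) keep the oncogenic allele silent and carry the vector. Organoids given lentiviral Cre (BRAF) express BrafV600E and were profiled 5 months after its induction. Selected organoids are BRAF organoids that had been grown in base medium, which lacks the stem-cell niche factors. Each of these types had 3 lines, numbered 1 to 3 in the labels, and each line was kept for 48 hours in ENSW medium or in base medium before RNA was taken, giving 6 groups of 3 arrays. For wild-type organoids there was a single array per medium, which enters no test. Routine culture used EGF and conditioned media that supply Noggin, R-spondin and Wnt3a. The labels do not say whether a line came from 1 animal or a pool, so the p-values measure the spread between these lines.

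Interferons act in 3 classes. Type I and type III interferons signal through JAK kinases to a complex that holds STAT2 and IRF9 and binds the interferon-stimulated response element (ISRE) near gene starts, while type II interferon acts mainly at the gamma-activated site (GAS). Colon epithelium keeps a low tone of this programme and is known for its response to type III interferon. The members cover the RNA and DNA sensors, the transcription factors, and the effectors that block translation, degrade RNA, modify proteins or restrict microbes within the cell.

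Promoter windows of 300 bases, from 250 before to 50 after a start site, were found in the RefSeq table (GRCm38.p6) for 30 of the 39 genes. The ISRE core was searched as GAAANNGAAA on either strand (TTTCNNTTTC on the other), and the GAS as TTCNNNGAA, which reads the same on both strands. The ISRE core was present for 16 of the 30 genes, against 3.99% of the 27025 genes in the table, and 8 of the 16 held more than 1 match. The GAS was present for 7 of the 30 genes, against 9.55% of all genes. In 4 member windows both motifs were found, and in 1 of these the matches overlapped. No ISRE core was found in the windows of Cmpk2, Dtx3l, Herc6, Ifi35, Ifi44, Ifit2, Irf1, Irf7, Irf9, Oasl1, Oasl2, Samd9l, Trim25 or Xaf1. The table had no entry for Dhx58, Zbp1, Oas2, Usp18, Parp9, Parp14, Mx1, Mx2 or Rtp4. The sequences below lie before the start site and run 5′ to 3′ along the gene's strand, with the matches in capitals. Isg15, Ifit1, Stat2, Gbp2 and Irf1 are shown because their levels are given for every array. Ifit3 is shown because it fell among the most in selected organoids, the Oas1a and Oas1g pair because the array must tell these close copies apart, and Bst2 because it did not follow the other genes.
Isg15, ISRE core, chr4:156200855-156200916, minus strand: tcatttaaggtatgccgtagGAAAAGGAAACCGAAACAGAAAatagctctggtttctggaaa
Ifit1, ISRE core, chr19:34640765-34640833, plus strand: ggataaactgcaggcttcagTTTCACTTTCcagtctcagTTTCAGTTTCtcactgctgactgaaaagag
Ifit3, ISRE core, chr19:34583353-34583436, plus strand: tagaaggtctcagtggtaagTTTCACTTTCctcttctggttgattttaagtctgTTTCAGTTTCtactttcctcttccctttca
Stat2, ISRE core, chr10:128270256-128270305, plus strand: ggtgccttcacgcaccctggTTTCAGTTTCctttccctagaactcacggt
Gbp2, ISRE core, chr3:142620584-142620633, plus strand: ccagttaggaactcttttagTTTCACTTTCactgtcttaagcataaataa
Oas1a, ISRE core, chr5:120907526-120907565, minus strand: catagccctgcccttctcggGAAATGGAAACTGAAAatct
Oas1g, ISRE core, chr5:120887614-120887651, minus strand: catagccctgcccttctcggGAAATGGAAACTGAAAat
Bst2, ISRE core, chr8:71537567-71537622, minus strand: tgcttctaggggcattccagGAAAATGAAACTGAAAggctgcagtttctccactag
Irf1, GAS, chr11:53769904-53769952, plus strand: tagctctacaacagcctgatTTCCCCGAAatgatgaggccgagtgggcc
The Isg15 window holds 3 overlapping copies of the core, between 57 and 78 bases before the start. Ifit1 and Ifit3 hold 2 separate copies each. The 38 bases printed for Oas1g are the same as the first 38 of the Oas1a window. A match in a window is a description of its letters and does not show that a factor binds there.

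Levels are given as log2 of the array signal relative to the 75th percentile of that array, so 0 is the brightness that 3 in 4 probes stay below. Between 59.6% and 65.2% of probes were well above background on each of the 20 arrays, and 29 to 39 of the members were. The EV arrays shared no slide with the BRAF or selected arrays, and in comparisons with EV the type of organoid therefore cannot be told apart from the slide. Both media of a culture lay on 1 slide. The organoids carried the epithelial markers: all 10 listed genes, among them Epcam, Cdh1 and Krt8, passed the filter. Their mean level was 6.29 to 6.40 in EV base and 3.98 to 4.37 in selected base, and 7 of the 10 were called lower in selected than in EV organoids there. Of 17 immune cell markers 11 passed, with a mean level between -1.22 and -0.44 over the 20 arrays. Of these 11, all but Cd68 were well above background on all 18 arrays of the fit, Ptprc and Cd3e included, while Cd3g, Itgax, Cd52 and Laptm5 were not well above background on any. Of 11 markers of connective tissue and vessels, Col1a2, Acta2, Pecam1 and Kdr were well above background on all 18 arrays and Pdgfrb on 5, while Col1a1, Pdgfra, Dcn, Lum and Cdh5 were not on any. Because these are bulk samples, fewer cells of a type and less RNA per cell cannot be told apart.

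As a group, the EV organoids in base medium had the highest interferon response genes, and selected organoids had low levels in either medium. In ENSW, EV lines 2 and 3 and BRAF lines 1 and 3 lay within the range of the selected arrays. BRAF line 1 did so in base medium as well. The mean level over the 39 genes was 0.55, -1.98 and -1.67 for EV lines 1, 2 and 3 in ENSW and 2.35, 0.79 and 0.31 in base medium. BRAF lines 1, 2 and 3 had means of -2.55, -0.12 and -2.05 in ENSW and -2.10, 1.40 and 0.15 in base medium. Selected lines had means of -2.39, -1.21 and -1.91 in ENSW and -2.72, -1.04 and -2.33 in base medium. All 3 EV base arrays were thus above all 3 selected base arrays, and BRAF base arrays spanned the range between them.

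**Figure D1:**
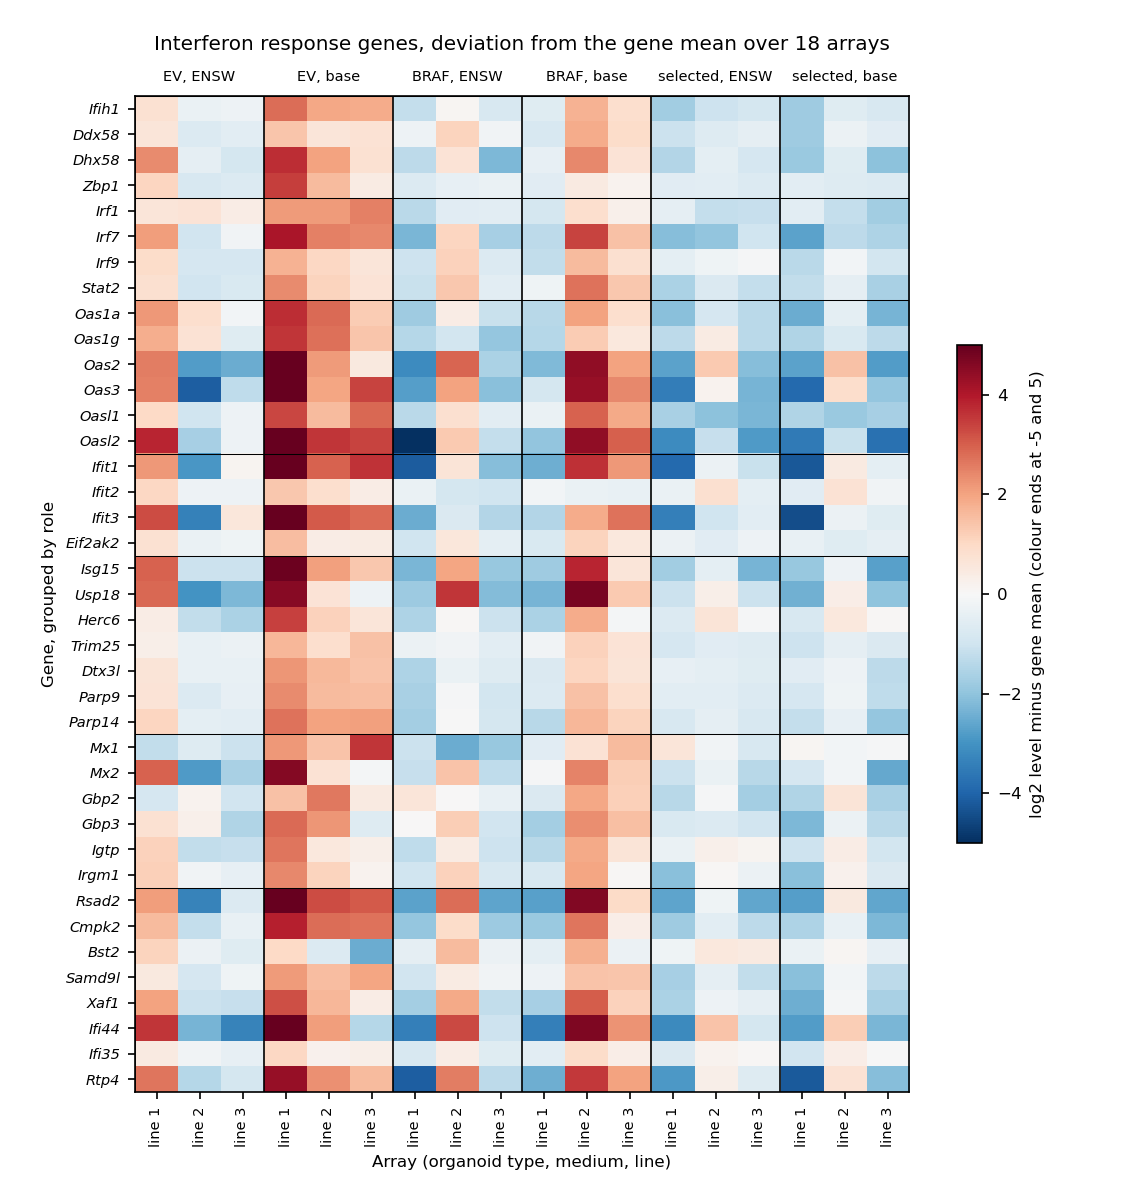
Each cell is the log2 level of a gene on an array minus that gene's mean over the 18 arrays, with rows grouped by role and columns by organoid type, medium and line. EV base arrays, BRAF base line 2 and EV ENSW line 1 are the reddest columns, and EV ENSW line 1 has a higher mean than EV base line 3. The selected arrays stay near or below the gene means for most genes. Exceptions include Oas2 on selected line 2, at -0.15 in ENSW and 0.03 in base medium against a gene mean of -1.45.

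The lines within a group differed far more for these genes than for the array as a whole. The median distance between the highest and lowest line was 1.98 for the members in EV ENSW, against 0.35 for all genes, and 2.92 in BRAF base, against 0.66. In the other 4 groups it was between 1.23 and 2.22, against 0.48 to 0.57 for all genes. Most members took the same order. Over the arrays of the fit the members also moved together, with a median r of 0.83 over 741 pairs and an r over 0.5 in 671. Counts of members that lie on the same side, here and below, are therefore not counts of independent results. EV line 1 was the highest line for 36 of 39 members in ENSW and again for 36 in base medium. BRAF line 2 was the highest for 34 members in ENSW and 36 in base medium, and BRAF line 1 was the lowest for 30 and 38. Selected line 2 was the highest for 28 and 34. The high line was therefore line 1 in EV and line 2 in both BRAF types, and it was the same line in both media. In base medium the EV line lay above the selected line of the same number for 39, 37 and 38 of the 39 genes in lines 1, 2 and 3. In ENSW this held for 38, 12 and 22 genes. EV and selected lines were not taken as pairs, so these counts depend on which lines share a number.

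In EV organoids a share of the interferon response genes rose from ENSW to base medium. In limma's fit, 13 of 39 members were called higher and 0 lower at an adjusted p under 0.05, and at an unadjusted p under 0.05 the counts were 20 and 0. Of all 21423 genes, 23.4% were called higher and 18.8% lower in this comparison. The median base minus ENSW difference was 2.05 for the members and 0.19 for all genes, and 38 of 39 members were above zero in each of the 3 EV cultures. Bst2, which encodes tetherin, a surface protein that holds budding virus on the cell, was the 1 member below zero in every EV culture. Its levels were 3.43, 2.02 and 1.71 in ENSW and 3.33, 1.62 and -0.14 in base medium, and its difference of -0.79 ± 0.82 (SE) was not called (limma adjusted p = 0.478).

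The 13 called genes came from every role except the translation inhibitors. Mx1, a dynamin-like GTPase that traps viral nucleocapsids, was at -5.90, -5.30 and -5.75 in the 3 EV lines in ENSW and at -2.50, -3.26 and -1.08 in base medium. The ENSW values of lines 1 and 3 were not well above background. The groups did not overlap, and the fitted rise, which rests in part on those values, was 3.37 ± 0.58 (SE, 10.4-fold, limma adjusted p = 0.000389). Cmpk2, a mitochondrial nucleotide kinase, rose 8.70-fold and Oasl1, a member of the oligoadenylate synthetase family, rose 6.41-fold (limma adjusted p = 0.0277 and 0.0113). Herc6, the ligase that attaches ISG15 in mice, rose 5.81-fold and Parp14, an ADP-ribosyltransferase, 4.72-fold (limma adjusted p = 0.0302 and 0.0180). Ifih1, which encodes the long double-stranded RNA sensor MDA5, was at 1.29, 0.18 and 0.27 in ENSW and at 3.29, 2.44 and 2.36 in base medium, a 4.33-fold rise (limma adjusted p = 0.00704). Samd9l, Gbp2, Parp9, Zbp1, Dtx3l, Irf1 and Trim25 made up the rest, with rises of 2.73-fold to 4.18-fold.

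By role, 2 of 4 sensors, 1 of 4 transcription factors and 0 of 4 translation inhibitors were called. Of 6 genes of the 2-5A synthetase family 1, Oasl1, was called. Of the 7 genes for ISG15 and the ubiquitin or ADP-ribose enzymes 5 were called, with 2 of 6 GTPases and 2 of 8 other effectors. Several uncalled genes had larger differences and a wider spread between lines. Ifit1, which binds viral RNA that lacks the cap mark of the host, differed by 4.34 ± 1.81 (SE, limma adjusted p = 0.0680). With the 2 media of a culture treated as a pair, as a random block in limma, 31 members were called higher and 0 lower, against 34.8% and 23.6% of all genes, and these included Isg15, Irf7, Ifit1 and Stat2. Without the pair, the count of 13 depended on single arrays. It was 22 without the ENSW array of EV line 1, 8 without the base array of that line or without the ENSW array of line 2 or of line 3, and 7 and 5 without both arrays of line 2 and of line 3. The shares of all genes called higher were 18.6%, then 20.2%, 18.8% and 18.1%, then 19.1% and 10.4%, in that order. Ifih1, Trim25, Dtx3l and Mx1 stayed called in all of these fits.

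**Figure D2:**
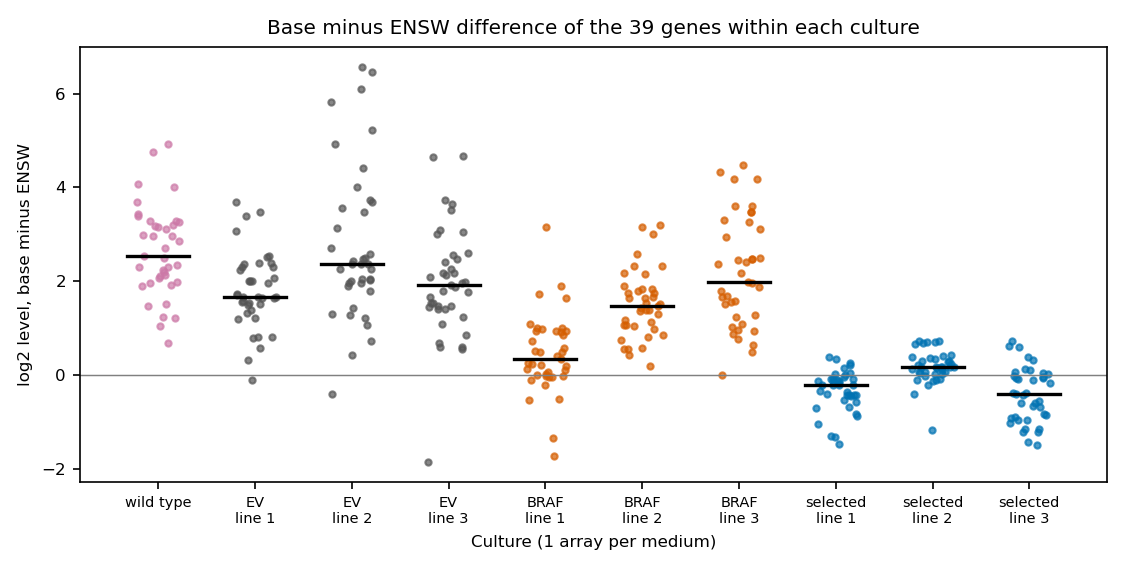
Each point is 1 of the 39 genes in 1 culture, plotted as its log2 level in base medium minus that in ENSW, with a black bar at the median of the culture. The medians are between 1.66 and 2.37 in the EV cultures, between 0.34 and 1.99 in the BRAF cultures and between -0.41 and 0.17 in the selected cultures.

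In BRAF organoids the differences between media were above zero but were not called. Of the members 0 were called higher and 0 lower in limma, with 7 and 0 at an unadjusted p under 0.05, and of all genes 1.08% were called higher and 0.593% lower. All 39 differences of means were above zero, with a median of 1.33 against 0.06 for all genes. The median within a culture was 0.34 in line 1, 1.47 in line 2 and 1.99 in line 3, and 28 of 39 members were higher in base medium in all 3 cultures. Line 1 stood apart: 11 of its members were lower in base medium, with Gbp3, an interferon-induced GTPase, at -1.73. With the culture as a random block 14 members were called higher, against 10% of all genes, among them Irf7, Stat2, Oasl1 and Mx1. Without the base array of BRAF line 1 the fit without the block called 8, and without both arrays of that line 2. Of all genes 4% and 2.03% were called higher in these fits.

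Selected organoids showed no called change between media. In limma 0 members were called higher and 0 lower, also at an unadjusted p under 0.05, and of all genes 0.00467% were called higher and 0% lower. The median difference was -0.16 over the 39 members, and 9 were above zero. The 3 culture medians were -0.22, 0.17 and -0.41. With the culture as a random block the count was 0 as well.

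The difference between the responses was tested directly. The base minus ENSW change was called smaller in selected than in EV organoids for 5 members and larger for 0, against 10.4% and 13.8% of all genes, with a median of -2.36 for the members and -0.19 for all genes. In this fit, which leaves out the pairing of the media, the share of members called smaller was near that of all genes. Mx1 was 1 of the 5, with a change that was 0.075 in selected and 3.37 in EV organoids, a difference of -3.30 ± 0.82 (SE, limma adjusted p = 0.00995). In ENSW Mx1 was well above background on 1 of 3 EV arrays and 2 of 3 selected arrays. Its difference therefore rests in part on values at background. Parp9 and Dtx3l, which form a complex that couples ADP-ribosylation to ubiquitin, had differences of -2.18 ± 0.75 and -1.99 ± 0.64 (SE, limma adjusted p = 0.0482 and 0.0370). Irf1 and Trim25 had differences of -1.90 and -1.5 (limma adjusted p = 0.0252 and 0.0231). Over 28 other settings and left-out arrays or cultures, the call held in 27 for Mx1, 20 for Irf1, 18 for Trim25, 12 for Dtx3l and 8 for Parp9. With the culture as a random block 22 members were called smaller, against 23.9% of all genes. The count of 5 fell to 1 without the ENSW array of EV line 3 and to 2 without the ENSW array of EV line 2, the base array of EV line 1 or 3, the ENSW array of selected line 1 or 2, or the base array of selected line 1 or 3. It was 3 without the ENSW array of selected line 3. Without both arrays of a line it was 3, 3 and 0 for EV lines 1 to 3, and 2, 2 and 1 for selected lines 1 to 3. Of all genes 5.69% to 9.07% were called smaller in these fits without 1 array. Without both arrays of a line the share was 3.94% to 9.35%. Between BRAF and EV organoids 0 members had a called difference in response, and 0 had an unadjusted p under 0.05 (limma), against 2.95% of all genes larger and 0.551% smaller, with a median of -0.81.

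Trim25, a ubiquitin ligase that acts on the RNA sensor RIG-I, had a pair of probes that disagreed. The probe used here lies at 88881521 to 88881580 on chromosome 11 (mm9) and differed by 1.45 between media in EV organoids and by -2.05 between selected and EV organoids in base medium. The other probe, which starts at 88874956 and ends at 88881181, differed by 0.02 and 0.31. Calls on Trim25 therefore belong to the first probe. Where other members had more than 1 probe, the direction in these comparisons was the same for each.

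Irf1, a transcription factor that interferon gamma induces, separated EV organoids from both other types in each medium. Its levels were 3.29, 3.37 and 3.04 in EV ENSW and 4.78, 4.79 and 5.18 in EV base, a rise of 1.68 ± 0.40 (SE, limma adjusted p = 0.00389). In BRAF organoids they were 1.31, 2.10 and 2.15 in ENSW and 1.80, 3.49 and 2.91 in base medium. In selected organoids they were 2.22, 1.48 and 1.52 in ENSW and 2.15, 1.49 and 0.92 in base medium. All 12 BRAF and selected values lay below the lowest EV base value, and in ENSW all 6 lay below the lowest EV value. Without both arrays of EV line 3, the adjusted p of the rise in EV was 0.0604.

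Isg15, the ubiquitin-like protein that is joined to other proteins after interferon, varied widely between lines. Its levels were 4.09, 0.08 and 0.08 in EV ENSW and 6.05, 3.21 and 2.50 in EV base. In BRAF organoids they were -1.11, 3.12 and -0.73 in ENSW and -0.62, 4.96 and 1.76 in base medium. In selected organoids they were -0.59, 0.67 and -1.18 in ENSW and -0.72, 0.90 and -1.57 in base medium. Every selected base value lay below every EV base value, while BRAF line 2 reached the EV range.

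Irf7, the factor that drives the second wave of type I interferon, was at 1.54, -1.50 and -0.72 in EV ENSW and at 3.53, 1.97 and 1.88 in EV base. It was at -2.81, 0.52 and -2.18 in BRAF ENSW and at -1.83, 2.84 and 0.93 in BRAF base. In selected organoids it was at -2.65, -2.51 and -1.52 in ENSW and at -3.23, -1.84 and -2.07 in base medium. The ENSW and base values of EV did not overlap, and the difference of 2.69 ± 1.11 was not called (SE, limma adjusted p = 0.0661) without the pairing and was called with it (0.00333).

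Stat2, a subunit of the factor that binds the ISRE, was at 1.46, -0.28 and -0.11 in EV ENSW and at 3.03, 1.76 and 1.36 in EV base. It was at -0.47, 1.99 and 0.15 in BRAF ENSW and at 0.46, 3.38 and 2.02 in BRAF base. In selected organoids it was at -0.91, -0.06 and -0.53 in ENSW and at -0.57, 0.22 and -0.96 in base medium. BRAF and EV overlapped in both media, and the selected base values lay below all EV base and BRAF base values.

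Ifit1 ranged over 10.1 on the log2 scale, the most of the 6 genes shown here array by array. Its levels were -1.06, -6.14 and -3.12 in EV ENSW and 2.63, -0.31 and 0.39 in EV base. In BRAF organoids they were -7.40, -2.60 and -5.39 in ENSW and -5.67, 0.40 and -1.06 in base medium. In selected organoids they were -7.13, -3.52 and -4.36 in ENSW and -7.50, -2.79 and -3.75 in base medium. The probe was not well above background for EV line 2 in ENSW or for BRAF and selected line 1 in either medium, so those values are limits set by the background.

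Gbp2, a GTPase that coats bacteria and parasite vacuoles, followed line 2 rather than line 1 in EV organoids. Its levels were -3.99, -2.98 and -4.10 in EV ENSW and -1.68, -0.54 and -2.70 in EV base, a rise of 2.05 ± 0.77 (SE, limma adjusted p = 0.0442). In BRAF organoids they were -2.54, -3.12 and -3.54 in ENSW and -3.88, -1.22 and -1.99 in base medium. In selected organoids they were -4.56, -3.21 and -4.87 in ENSW and -4.64, -2.50 and -4.77 in base medium. BRAF line 1 was the only line in which Gbp2 was lower in base medium by more than 1. The call on the rise in EV was lost when the ENSW array was left out for line 1 or line 3, when the base array was left out for line 1 or line 2, or when any line was left out whole, with an adjusted p of up to 0.172. It was also lost with quantile normalization (0.0607), with no filter (0.0587) and with the slide as a fixed block (0.0566).

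**Figure D3:**
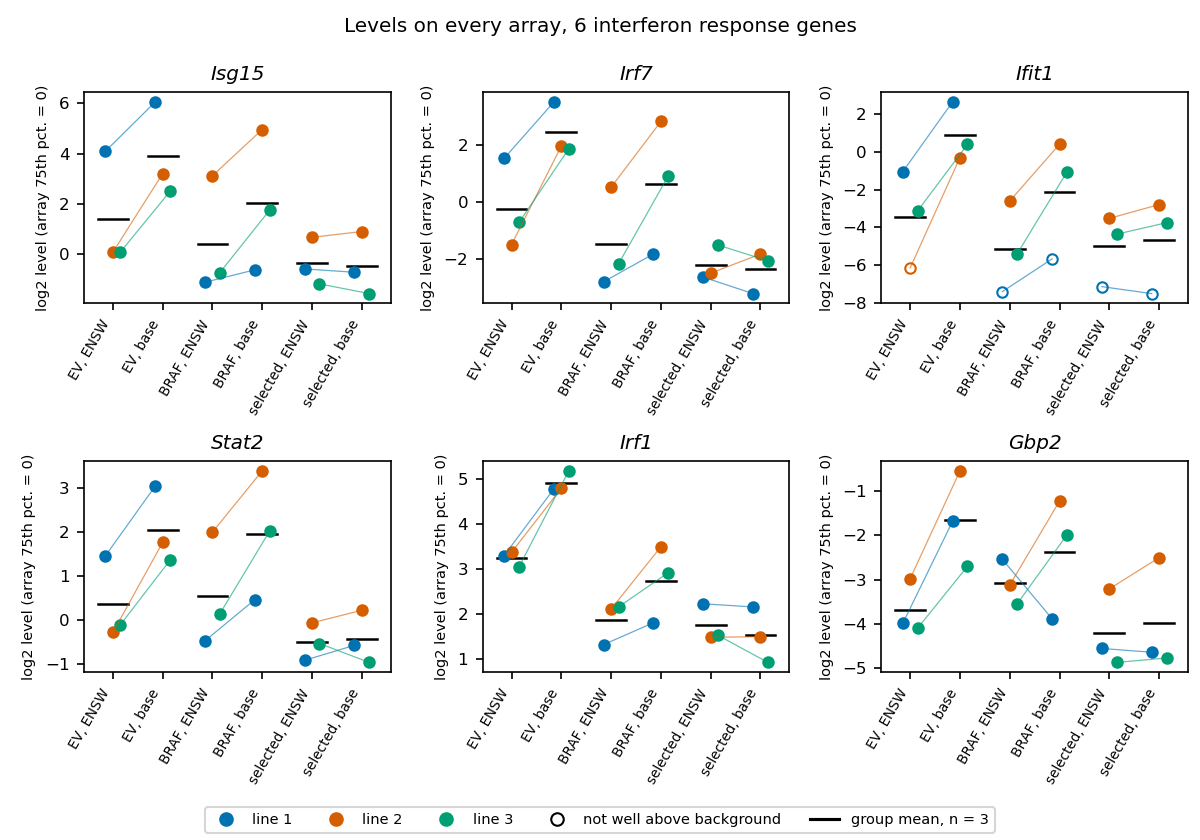
Log2 levels of 6 genes on the 18 arrays, coloured by line, with thin lines that join the media of a culture, black bars at the means of 3 lines and open points where the probe was not well above background. Each EV culture is higher in base medium than in ENSW in every panel, and each selected culture differs by less than 1 between media.

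In base medium the selected organoids had lower interferon response genes than EV organoids. In limma 27 of 39 members were called lower and 0 higher, against 23.2% and 25% of all genes. The median difference was -3.07 for the members and 0.02 for all genes, and for 29 members all 3 selected arrays lay below all 3 EV arrays, which held for 26.6% of all genes. Bst2 was the 1 member above zero, at 0.51 ± 0.82 (SE, limma adjusted p = 0.639). All 4 sensors and all 4 transcription factors were called lower, with 5 of 6 genes of the 2-5A synthetase family and 3 of 4 translation inhibitors. Also called lower were 5 of 7 of the ISG15 and ubiquitin or ADP-ribose enzymes, 3 of 6 GTPases and 3 of 8 other effectors. The medians by role ran from -2.38 for the GTPases to -4.31 for the 2-5A synthetase family.

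Oasl2, a ubiquitin-like relative of the synthetases, was at 4.15, 1.5 and 1.30 in EV base and at -5.60, -3.17 and -5.79 in selected base. It was 144-fold lower (-7.17 ± 1.84, SE, limma adjusted p = 0.00511), with the selected lines 1 and 3 not well above background. Ifit1 was 48.0-fold lower (-5.58 ± 1.81, limma adjusted p = 0.0199), a call lost without the base array of EV line 1 (0.0786) or of selected line 1 (0.0935). Rsad2, which encodes viperin, an enzyme that makes a chain-terminating nucleotide, was at 0.66, -1.67 and -1.86 in EV base and at -7.68, -4.43 and -7.51 in selected base, with only line 2 well above background among the latter. It was 47.9-fold lower (limma adjusted p = 0.0257). Ifit3, the partner of Ifit1 in RNA binding, was 47.7-fold lower and Oas3, which makes the activator of RNase L, 34.7-fold lower (limma adjusted p = 0.00993 and 0.0345). In selected base Ifit3 was well above background on 2 of 3 arrays and Oas3 on 1, so these folds, and those of Oasl2, Ifit1 and Rsad2, rest in part on values at background. Over 20 other settings and left-out arrays or cultures, the call was lost in 5 for Ifit1, 7 for Rsad2, 8 for Oas3 and 1 for Ifit3. Irf7 was 28.7-fold lower (limma adjusted p = 0.00246), and none of its values in the 2 groups overlapped.

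A set of 16 calls held whichever arrays were left out. Irf1 was 10.5-fold lower (-3.40 ± 0.40, SE, limma adjusted p = 1.23e-05), Ifih1 9.49-fold lower and Samd9l 8.40-fold lower. The calls on these, and on Dhx58, Zbp1, Irf7, Oas1a, Oas1g, Oasl1, Oasl2, Trim25, Dtx3l, Parp9, Parp14, Mx1 and Cmpk2, stayed under each of the other settings and left-out arrays or cultures tried. Isg15 was 20.9-fold lower and Stat2 differed by -2.49 ± 0.76 (SE; limma adjusted p = 0.0292 and 0.0146). Both lost the call without the base array of EV line 1, where the adjusted p was 0.125 for Isg15 and 0.0685 for Stat2, and without that of selected line 3 (0.0924 and 0.0522). Isg15 also lost it without the base array of selected line 1 (0.0682). Gbp2 was 5.04-fold lower with groups that overlapped (limma adjusted p = 0.0213), a call lost without the base array of EV line 2 or of selected line 1 or 3. Oas1g was not well above background on any selected base array and was at least 3.59-fold lower (limma adjusted p = 0.000978). Oas1a and Oas1g are close copies, and whether their probes detect each other's transcripts was not tested. The count of 27 was 17 without the base array of selected line 1 and 17 without both arrays of EV line 1. Of all genes 21.2% and 19.6% were called lower in these fits.

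**Figure D4:**
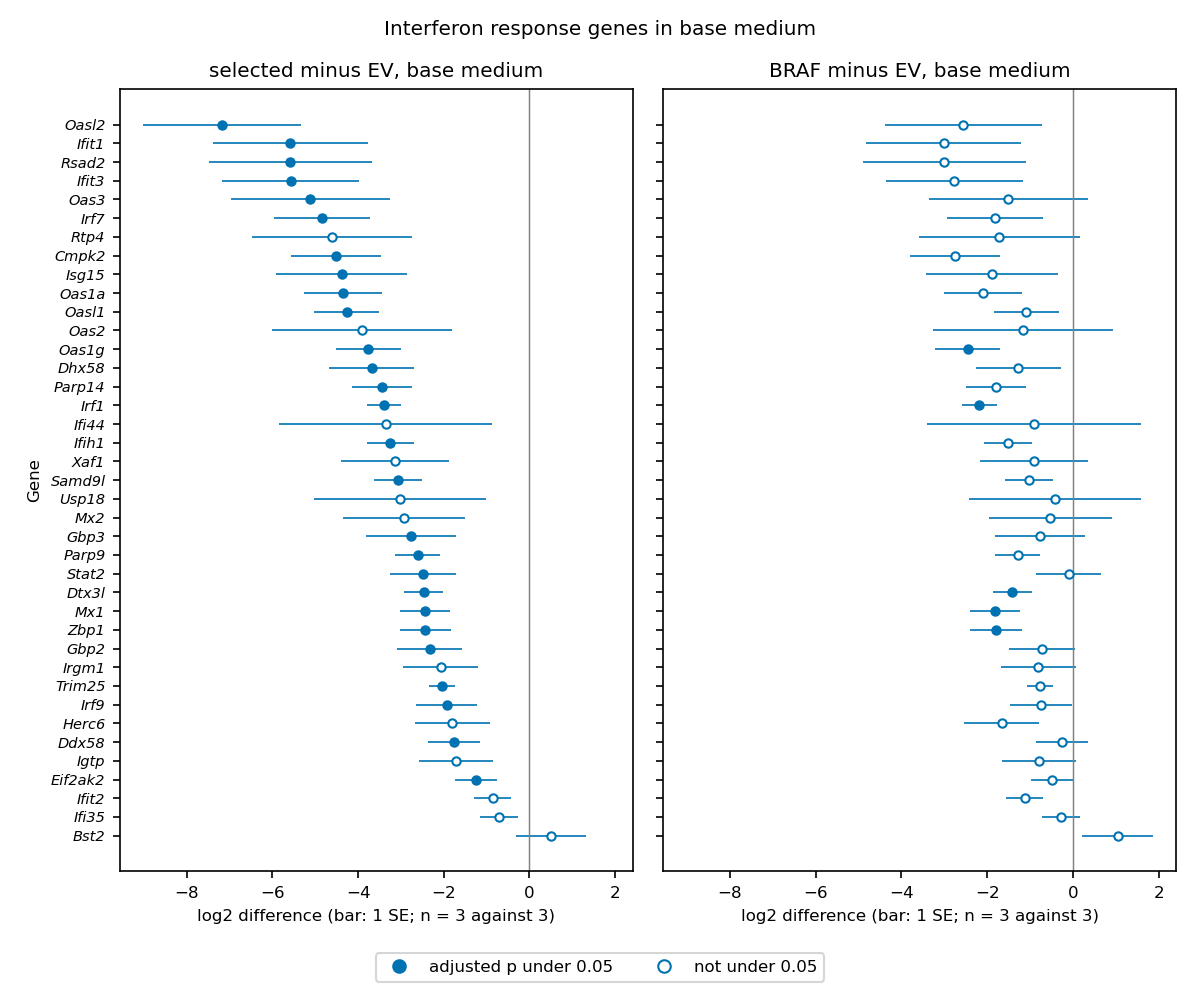
Log2 differences from EV in base medium for selected (left) and BRAF (right) organoids, with bars of 1 standard error and filled points where the adjusted p was under 0.05. On the left 27 points are filled and all but Bst2 lie below zero, and on the right 5 are filled.

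The ISRE core was set beside the size of the differences. In selected against EV organoids in base medium the median difference was -3.01 for the 16 genes with a match, -3.10 for the 14 without and -3.02 for the 9 without an entry. For base against ENSW medium in EV organoids the medians were 1.80, 1.94 and 2.24. Of the 16 genes with a match 13 were called lower in the first comparison, and of the 14 without 9. These are descriptions, with no test.

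BRAF organoids that had not been selected were closer to EV. In base medium 5 members were called lower and 0 higher in limma, against 13.1% and 17.9% of all genes, with a median of -1.27 for the members and 0.03 for all genes. The share of members called lower was thus near that of all genes. Oas1g and Mx1 were well above background on 2 of the 3 BRAF base arrays, so their folds rest in part on a value at background. Oas1g was 5.49-fold lower, Irf1 4.53-fold, Mx1 3.51-fold and Zbp1, a sensor of left-handed nucleic acid that triggers cell death, 3.47-fold. Dtx3l was 2.67-fold lower, the values of Mx1 and Zbp1 overlapped between the groups, and the 5 adjusted p-values were between 0.00118 and 0.0363. The Irf1 call stayed in every fit with arrays left out, and the other 4 were each lost in some. The count was 8 with the culture as a random block, where 12.7% of all genes were called lower. It was 1 without the base array of EV line 1 or of BRAF line 1, and 11 without that of BRAF line 2, where the shares of all genes called lower were 9.61%, 8.22% and 10.8%. Without both arrays of a line it was 1, 3 and 3 for EV lines 1 to 3, and 1 and 12 for BRAF lines 1 and 2, with 6.15% to 12.9% of all genes called lower in these 5 fits. Set side by side by line number, the median BRAF minus EV difference in base medium was -4.09 in line 1, 0.70 in line 2 and -0.38 in line 3. EV and BRAF lines were not taken as pairs, so these signs depend on which lines share a number.

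Selected organoids were also below unselected BRAF organoids in base medium for 38 of 39 members, with a median of -1.76 for the members and -0.03 for all genes. The members moved together over the arrays (median r of 0.83 between pairs), so these 38 are not independent results. Of the 39 members, 3 were called lower and 0 higher, against 5.15% and 4.64% of all genes. Oasl1 was at 1.82, 5.13 and 4.06 in BRAF and at 0.68, 0.30 and 0.49 in selected organoids, 9.07-fold lower (limma adjusted p = 0.0186). Samd9l, a brake on translation and cell growth, was 4.12-fold lower and Trim25 2.43-fold lower (limma adjusted p = 0.0356 and 0.0196). Lines of the same number deviated together in these types, and in base medium the BRAF line lay above the selected line of its number for 28, 38 and 37 of 39 members in lines 1 to 3, with median differences of -0.45, -2.15 and -2.70. In a fit of the BRAF and selected arrays alone with the line number as a fixed block, chosen after seeing the data, 17 members were called lower and 0 higher, against 6.04% and 5.2% of all genes. These included Samd9l, Oas3, Ifih1, Stat2 and Irf7 (limma adjusted p between 0.00319 and 0.0477). The count was 5 with the culture as a random block, where 4.87% of all genes were called lower. Without the line block it was 0 without the base array of selected line 3, BRAF line 2 or BRAF line 3, and 15 without that of BRAF line 1 (13 without both of its arrays). The shares of all genes called lower were 3.53%, 2.56% and 2.78%, then 8.29% (7.87%). On the 1 slide that held both types the lines had different numbers, and BRAF line 1 was the lowest BRAF line for 38 members in base medium. There, selected line 3 minus BRAF line 1 had a median of -0.13 in base medium, with 21 of 39 members below zero, and of 0.60 in ENSW.

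In ENSW few of these genes were called between types. Against EV, 0 members were called higher or lower in BRAF organoids, with 0 and 3 at an unadjusted p under 0.05 (limma), and 4.86% of all genes were called higher and 1.42% lower. The median was -0.33, and by line number, which was not a pairing with EV, it was -2.33, 1.66 and -0.30 in lines 1 to 3. With the culture as a random block Irf1 was called lower (-1.38 ± 0.37, SE, limma adjusted p = 0.0441). In selected organoids 1 member, Irf1, was called lower and 0 higher, against 5.14% and 8.71% of all genes. The median was -0.69, with 33 of 39 members below zero, and by line number, again without a pairing, it was -2.51, 0.38 and -0.26. Irf1 was 2.82-fold lower (-1.49 ± 0.40, SE, limma adjusted p = 0.0257), with no overlap between the 3 values of each group. This call was lost without the ENSW array of any 1 EV line or of selected line 2 or 3, where the count was 0. In those fits 2.2% to 4.48% of all genes were called lower. Between selected and BRAF organoids 0 members were called (1 higher and 0 lower at an unadjusted p under 0.05, limma), against 0.154% of all genes called higher and 0.453% lower.

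Other genes of interferon signalling were listed as well. Of 46 listed genes 39 were tested, and in EV organoids 19 were called higher and 3 lower in base medium, against 23.4% and 18.8% of all genes, with a median of 0.73. The 4 receptor genes called, of 6, were all higher. Cgas, the sensor of cytosolic DNA, fell 10.4-fold. Genes that rose included Ticam1, the adaptor of the RNA receptor TLR3, and Irf2, which rose 3.72-fold and 3.61-fold. Rnaseh2b, a subunit of an enzyme that removes RNA from DNA, and Sting1, the adaptor below cGAS, fell 2.40-fold and 6.85-fold. In selected against EV organoids in base medium 16 were called lower and 5 higher, against 23.2% and 25% of all genes, with a median of -0.69. Ticam1 and the interferon gamma receptor gene Ifngr2 were lower by 4.63-fold and 3.48-fold, while Cgas was 6.88-fold, Rnaseh2b 2.12-fold and Ptpn2, a phosphatase that dampens JAK signalling, 1.84-fold higher. Sting1 was 4.63-fold higher there (limma adjusted p = 0.0242). Cgas and Sting1 thus ran opposite to the called members in both comparisons.

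In BRAF against EV organoids in base medium 9 of the 39 pathway genes were called lower and 4 higher, against 13.1% and 17.9% of all genes. Cgas was 3.92-fold, Ifna2 1.83-fold and Ifna1 1.44-fold higher. Ifngr2 was 2.31-fold, Ifnar1 2.14-fold and Il10rb 2.56-fold lower, and these 3 encode receptor chains for interferon gamma, for type I interferon and for type III interferon.

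Of 12 interferon genes listed, 6 were tested. Ifna1, Ifna2, Ifna5, Ifnab and Ifnl3 were well above background on all 18 arrays at levels between -4.59 and -1.87. The type I genes are close copies of each other, so signal from one may reach another's probe, which was not tested. Ifnb1, the first type I interferon made after sensing, was well above background on 2 arrays and Ifng on 0. Ifnl3 was 1.61-fold higher in base medium in EV organoids (limma adjusted p = 0.00283), and in base medium Ifna2 was 1.59-fold higher in selected organoids than in EV (0.0197), the direction opposite to that of the members. Ifnk, an interferon of epithelia, was well above background on 3 of the 18 arrays, the fewest that the filter allows, and on no EV ENSW array, so it entered the fit only through arrays where it was high. Its level was at least 1.28-fold higher in EV base.

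Interferon-inducible relatives that are not members were listed too, and 49 of 51 were tested. In EV organoids 13 were called higher and 1 lower in base medium, against 23.4% and 18.8% of all genes. In this fit without the pairing of the media, the share of higher calls was near that of all genes. The median was 1.495. In selected against EV organoids in base medium 0 were called higher and 25 lower, against 25% and 23.2% of all genes, with a median of -1.80. Ifit1bl1, a copy of Ifit1, rose 34.3-fold, Oas1b 1.75-fold and Tor3a 2.33-fold in the first comparison, and Ifitm2, an endosomal barrier to virus entry, fell 8.69-fold. In the second, Ifit1bl1 was 440-fold lower, Oas1b 2.17-fold and Nmi 5.36-fold lower.

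Markers of the mature colonocyte and of dividing cells moved in the same comparisons. In EV organoids 9 of 10 colonocyte markers were called higher and 10 of 10 proliferation markers lower in base medium. In selected against EV organoids in base medium 9 colonocyte markers were called lower and 10 proliferation markers higher. The mean colonocyte level was 5.12 to 6.64 in EV base, 1.51 to 2.87 in BRAF base and -2.98 to -2.45 in selected base, so the groups did not overlap. The order of the lines on the colonocyte list and on the interferon response list varied between groups. Within EV base, line 3 had the highest colonocyte mean and the lowest mean of the interferon response genes. Within BRAF ENSW, line 2 had the lowest colonocyte mean and the highest mean of the interferon response genes. In EV ENSW line 1 was the highest on both lists. In BRAF base and in selected organoids in either medium line 1 was the lowest on both. The part of these markers in the differences of the interferon response genes was not tested. The immune markers called in the 2 comparisons were 4 higher and 0 lower in the first, and 1 higher and 2 lower in the second, of 11 tested.

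**Figure D5:**
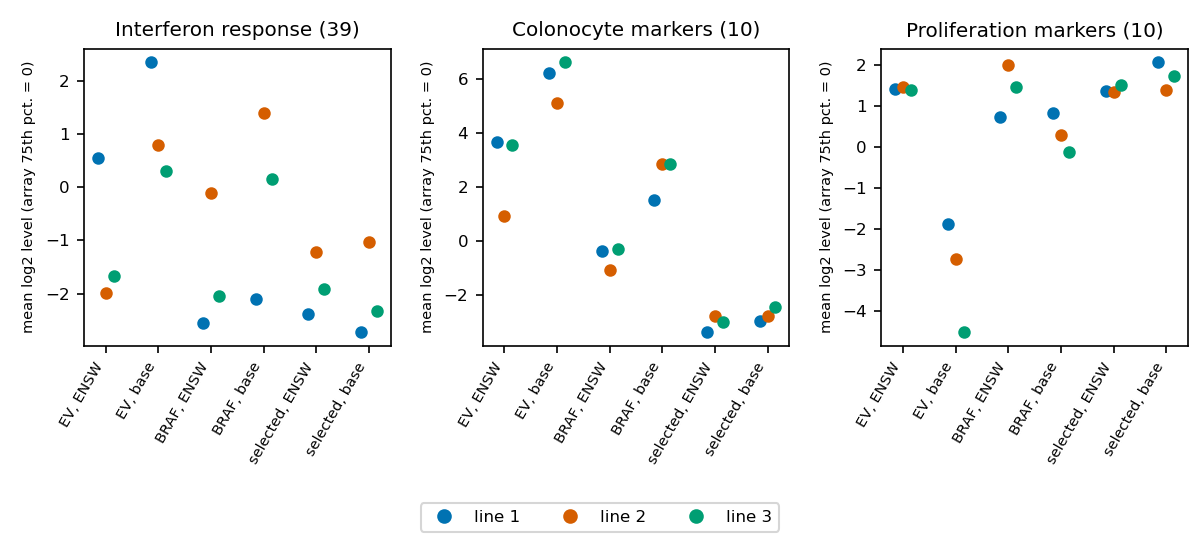
Mean log2 level of the 39 interferon response genes, of 10 colonocyte markers and of 10 proliferation markers on each of the 18 arrays, coloured by line. In base medium the 3 lines span 1.52, 1.36 and 0.53 for the colonocyte markers in EV, BRAF and selected organoids, and 2.04, 3.50 and 1.69 for the interferon response genes.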

How the data were processed

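RNA from 20 organoid samples was hybridised, 1 sample per array, to single-colour (Cy3) Agilent arrays. The deposited scanner files give the authors' intensity values per spot from Feature Extraction 10.7.3.1 with mm9 coordinates, per the file headers. The authors' deposited value table holds log2 values, and limma is named in the submitters' processing notes, with no version given in the sources used here. Here, log2 of the processed intensity minus the 75th percentile of the array was averaged per probe. A probe entered the fit if 3 or more of the 18 arrays had it well above background (26826 probes). Each gene was read from its brightest probe on average (21423 genes, 16085 with a symbol). The scanner marked 48 spots as outliers, which were dropped, and none as saturated. Differences were tested with limma 3.58.1 (R 4.3.3) on 6 group means, two-sided, with Benjamini-Hochberg adjustment over all genes and a threshold of 0.05. The fit was tested on simulated data.

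The 2 media of a culture pair: their deviations from the group means, over all genes, had r between 0.42 and 0.87 in 9 of 9 cultures. Line numbers shared between BRAF and selected organoids of 1 medium gave r over 0.1 in 6 of 6 pairs (0.16 to 0.37), so these lines pair. With EV they did so in 3 of 6 pairs for BRAF and 0 of 6 for selected, so those types were not paired. Genes with full statistics were up to 6 called members per direction and comparison with the largest difference. Isg15, Irf7, Ifit1, Stat2, Irf1 and Gbp2 were always given, and from the pathway and relative lists up to 3 called genes per direction with the smallest adjusted p, of which some are not reported here. The members and lists were chosen with earlier results of these data known. Bounds ("at least") set the bright group's mean against the lowest signal well above background on each array of the dim group. In EV organoids the median of all genes moved by 0.19 between media with the main scaling and by 0.09 with quantile normalization. Alternatives were normexp background correction, quantile normalization, the authors' values, no filter, the median of a gene's probes, line, culture and slide blocks, and left-out arrays. Promoter sequences are RefSeq's (GRCm38.p6).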

Additional observations from a re-analysis of the deposited data

Results flagged for a closer look

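For 5 genes the effect of the medium differed between selected and EV organoids in a test of that difference (limma, base minus ENSW in selected minus the same in EV). The values were -3.30 for Mx1, which rests in part on ENSW values at background, -2.18 for Parp9, -1.99 for Dtx3l, -1.90 for Irf1 and -1.5 for Trim25. These are 5 of 39 members, and 10.4% of all genes were called smaller in the same test. In that fit, which leaves out the pairing of the media, the share of members was near that of all genes. With the culture as a random block 22 of the 39 members were called smaller, against 23.9% of all genes. All 3 EV cultures of Mx1, Parp9, Dtx3l, Irf1 and Trim25 were higher in base medium. The call on Mx1 held in 27 of 28 other settings, that on Dtx3l in 12 and that on Parp9 in 8.

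For 2 genes, Dhx58 and Eif2ak2, every EV culture was higher and every selected culture lower in base medium, a pattern that 6.79% of all genes showed against 5.13% of the members. The difference in response was -2.41 for Dhx58 and -0.79 for Eif2ak2 (limma adjusted p = 0.244 and 0.450), and with the culture as a random block it was called for Dhx58 (0.0339) and not for Eif2ak2 (0.126).

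The wild-type organoids, outside every test, had 35 of 39 members above all 3 EV base arrays on their base array, against 24.1% of all genes. In ENSW 3 members were above and 1 below all EV arrays. The wild-type base minus ENSW difference was above zero for 39 of 39 members, with a median of 2.54. These 2 arrays lay on the slide of EV line 1, and against that line the median difference of the members was 0.48 in base medium and -0.24 in ENSW. With 1 array per medium there is no replicate check.

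Groups of 3 arrays are too small for a check on single outlying arrays.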

How the results depend on the processing

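No result on a single gene reversed direction under any setting tried, and 21 of 54 calls on single genes held in all of them; 29 were lost without some array. With the culture as a random replicate block, members called were 31 (EV) and 14 (BRAF) between media, 22 for the smaller response of selected than EV organoids, 1 and 8 for BRAF against EV in ENSW and base medium, and 5 for selected against BRAF in base medium. The shares of all genes called in the same direction were 34.8%, 10%, 23.9%, 1.48%, 12.7% and 4.87%, in that order. With the culture as a fixed block, added after seeing the data, the counts were 38 for EV (37 higher and 1 lower, with 58.3% of all genes called), 22 for BRAF (13.9%), 2 for the BRAF minus EV response and 35 for selected minus EV. For the responses 5.46% and 22.7% of all genes were called lower. The slide as a fixed block gave 31, 6 and 22 for the EV, BRAF and selected minus EV responses, and as a random block 1 for BRAF and 8 for selected minus EV. The shares of all genes called in the same direction were 27.4%, 1.63% and 14.3%, then 1.98% and 13.4%. Normexp gave 1 for BRAF against EV in ENSW and 8 for selected minus EV, and no filter gave 3 for the latter. With normexp 1.29% and 9.41% of all genes were called lower in these comparisons. The line number as a replicate block over all types moved no count by over 1.5 times, and over BRAF and selected arrays alone, added after seeing the data, it gave 17 for selected against BRAF in base medium, where 6.04% of all genes were called lower. Leaving out arrays or cultures (the latter added after seeing the data) gave 5 to 22 for EV and 0 to 8 for BRAF between media, 1 to 12 for BRAF against EV in base medium, and 0 to 1 and 17 to 30 for selected against EV in ENSW and base medium. It gave 0 to 15 for selected against BRAF in base medium and 0 to 7 for selected minus EV. Between media 10.4% to 23.1% of all genes were called higher in EV and 0% to 4% in BRAF in these fits. For the other comparisons the shares called lower were 6.15% to 13.6%, 1.91% to 4.63%, 17.5% to 23%, 2.56% to 8.29% and 3.94% to 12%, in that order. The cause of these moves was not tested. Each group rests on 3 lines, and 29 to 39 members were well above background on an array, so some low values are limits.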
